A study of Mus musculus with 2 samples.

Results

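The 10 genes described here encode the PGC-1 coactivators (Ppargc1a, Ppargc1b), the PPAR nuclear receptors (Ppara, Ppard, Pparg), the estrogen-related receptors (Esrra, Esrrb, Esrrg) and a pair of mitochondrial regulators (Nrf1, Tfam). They were picked by symbol from the 55536 annotated mouse genes by a rule that names the genes and uses no measured value, though earlier results of these data were known when the set was proposed. Total RNA of the gastrocnemius, the large calf muscle, was sequenced in 2 libraries from adult female mice aged 8 to 10 months. The labels give the strain as 5xFAD/CAST, a cross of 5xFAD mice, which carry human transgenes and serve as a model of Alzheimer's disease, with the wild-derived CAST strain; human transgenes are not part of the mouse annotation, and the transgene promoter is not stated in the labels. Both libraries belong to 1 group and started from 300 ng of RNA, and no control genotype or tissue was among the samples analysed here. The labels call the libraries biological replicates 1 and 2 but give both 1 donor identifier, so separate animals are not settled and the spread between libraries may be technical.

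PGC-1 proteins do not bind DNA themselves. They dock on nuclear receptors such as the PPARs and ERRs and on NRF1, and raise transcription of genes for fatty acid oxidation, the respiratory chain and mitochondrial DNA maintenance. In skeletal muscle this circuit is known for its response to endurance exercise and fasting and for higher activity in oxidative than in glycolytic fibres. PPARs bind DNA as heterodimers with RXRs and respond to fatty acids, whereas ERRs are orphan receptors that need no known natural ligand and depend on coactivators.

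Gene counts summed to 35423706 in library 1 and 34367627 in library 2, and the common biological coefficient of variation over 11577 genes was 0.0942. All 6 fibre markers were detected, led by Acta1 (skeletal actin), Ckm (muscle creatine kinase) and Myh4 (the fast IIB myosin heavy chain), which stood at 10633.63 and 12335.84 TPM. Myh7, the slow myosin heavy chain, was at 229.70 and 330.20 TPM (log2 ratio 0.33). The tissue label thus had its defining markers. TPM is a length-corrected share of a library, so levels of different genes are compared in TPM. The 7SL RNA, a non-coding RNA outside the 10 genes, took 35.4% of gene TPM in library 1 and 27.0% in library 2. Over all genes, the log2 ratio of the libraries (2 over 1) had a median of 0.17 in TPM and of 0.01 in expected counts after edgeR's TMM scaling, which sets library sizes from the bulk of genes. Ratios between libraries below are from TMM-scaled expected counts unless TPM is named, and their 95% intervals are exact binomial (Clopper-Pearson) and cover counting error only.

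Ppargc1a transcripts differ by start site and splicing, and the sequences that separate them are shown first because the transcript results turn on them. They were read from the GENCODE M21 transcripts (mm10, minus strand of chromosome 5), 5′ to 3′. The first pair is the coding part of exon 1 for the main start at 51553922 (Ppargc1a-203, chr5:51553735-51553782) and for the start 13804 bases upstream (Ppargc1a-202, chr5:51567630-51567665), with the start codon in capitals.
Ppargc1a-203 exon 1: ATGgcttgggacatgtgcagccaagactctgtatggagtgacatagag
Ppargc1a-202 exon 1: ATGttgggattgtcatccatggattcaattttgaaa
The second pair is the spliced junction of exons 6 and 7. Ppargc1a-201 begins exon 7 with 31 more bases (chr5:51490091-51490121), and the capitals mark the stop codon that they bring into frame.
Ppargc1a-203 exons 6 and 7: agagtcaccaaatgaccccaagggt
Ppargc1a-201 exons 6 and 7: agagtcaccaaatttgtttttaTAA
The third pair is the spliced junction after exon 10. Ppargc1a-205 lacks exons 11 and 12 (122 and 152 bases), and the capitals mark the exon that follows exon 10.
Ppargc1a-203 after exon 10: aagcagaaagcaattGAAGAGCGCCGTGTG
Ppargc1a-205 after exon 10: aagcagaaagcaattATACCAACTCAGACG
The reading frame is 797 codons in Ppargc1a-203, 696 in Ppargc1a-205 and 270 in Ppargc1a-201. The annotation lists Ppargc1a-203 and Ppargc1a-205 as protein-coding, but Ppargc1a-201 as a nonsense-mediated decay transcript. As background, a splice form that ends soon after exon 6 is known as NT-PGC-1alpha, a short protein that keeps the activation domain, and the upstream start is known as the alternative promoter that responds to exercise and adrenergic signals.

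All 10 regulators were detected, with TPM of at least 1 in both libraries. Of all annotated genes 19.2% were detected in this way, and of protein-coding genes 44.5%. The genes covered a wide range of levels: Esrra, the highest, exceeded Pparg, the lowest, 28.6-fold in library 1 and 18.6-fold in library 2. From high to low the order in library 1 was Esrra, Tfam, Ppard, Ppargc1a, Esrrg, Ppara, Ppargc1b, Nrf1, Esrrb and Pparg. In library 2 the order was the same except that Ppargc1b stood above Ppara. The library values of Ppard and Ppargc1a overlapped (12.9 ± 3.25 and 10.7 ± 1.29 TPM, SD, n = 2). Those of Ppargc1b (5.88 ± 1.41 TPM) overlapped with those of Esrrg (7.11 ± 2.04), Ppara (5.46 ± 0.0990) and Nrf1 (4.66 ± 0.884), while Esrrg, Ppara and Nrf1 did not overlap with one another. Each SD here has 1 degree of freedom.

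**Figure D1:**
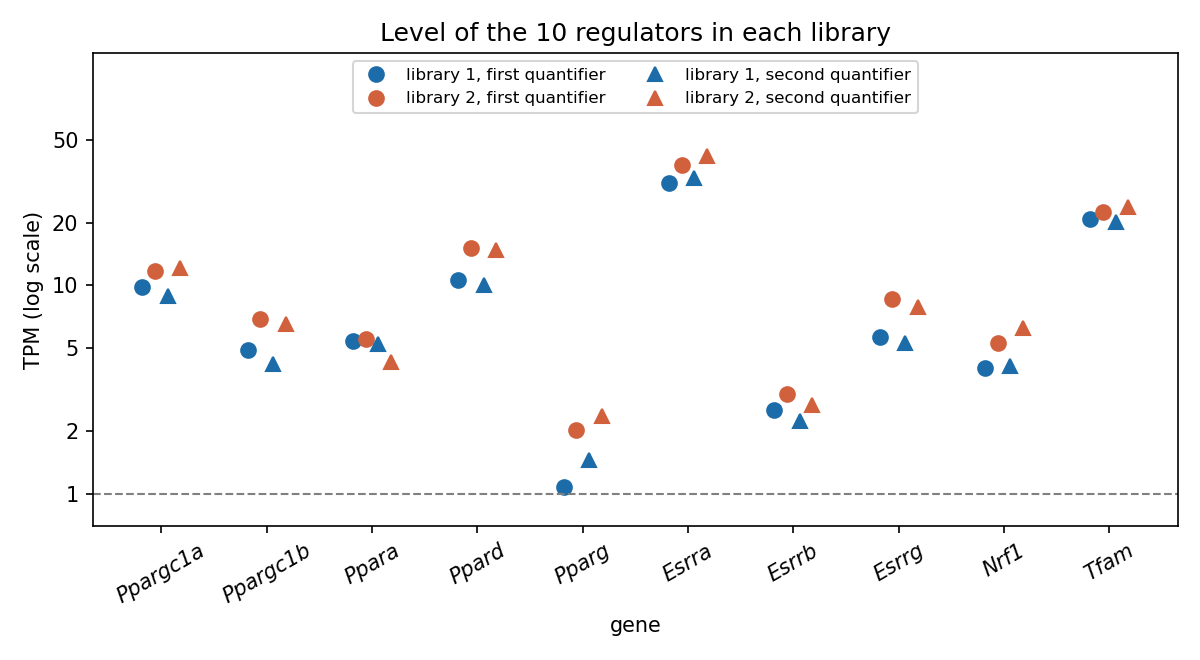
TPM of each of the 10 genes (log axis) in library 1 (blue) and library 2 (orange), from the first quantifier (circles) and the second (triangles); the dashed line is the detection threshold of 1 TPM. Esrra and Tfam were the 2 highest genes and Pparg the lowest in every table, and the second quantifier placed Ppara lower in library 2 than in library 1.

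Among the coactivators, Ppargc1a, the inducible member that drives mitochondrial biogenesis, stood at 9.83 and 11.65 TPM in libraries 1 and 2. Its 1219 and 1246 expected counts gave a log2 ratio of 0.07 (-0.04 to 0.19), an interval that includes 0. The gene (ENSMUSG00000029167.13, mm10 chr5:51454250-51567726, minus strand) stood above 59.2% of the protein-coding genes detected. Ppargc1b, the paralog with overlapping targets in mitochondrial metabolism, was at 4.89 and 6.88 TPM. It had the largest absolute ratio of the 10 genes, with 442 and 606 counts and a log2 ratio of 0.49 (0.32 to 0.68). That ratio was larger in size than the ratio of 92.8% of genes with mean TPM of at least 1. Ppargc1b (ENSMUSG00000033871.14) lies on the minus strand at chr18:61298136-61400431. Its ratio stayed between 0.42 and 0.53 with spike-in totals, DESeq2 size factors, deposited TPM and the TMM-scaled counts of the second quantifier. The miRNA gene Mir378a inside Ppargc1b was listed at 0 counts in both libraries, in tables that do not target small RNAs. Ppargc1a held 66.8% and 62.9% of the summed TPM of the pair (64.8 ± 2.76%), so it was 2.01 and 1.69 times the level of Ppargc1b. The more distant family member Pprc1 was at 8.51 and 8.65 TPM.

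Full-length Ppargc1a-203 was the leading Ppargc1a transcript in all 4 transcript tables, with 48.6% and 49.1% of the gene's TPM by the first quantifier and 47.9% and 41.4% by the second. The next transcripts were not stable between libraries. Ppargc1a-205, which lacks exons 11 and 12, held 26.4% of library 1's Ppargc1a TPM (209.93 counts) and 0% of library 2's (0 counts). By the second quantifier it had 174.5 counts in library 1 and about 0 in library 2. No count among the 1246 of library 2 allows a share of counts of up to 0.241%, a limit that covers counting error and not the assignment of reads among transcripts. Ppargc1a-201, with the early stop codon, moved the other way: it held 7.32% and 29.0% by the first quantifier (64.58 and 261.3 counts) and 17.2% and 32.7% by the second. Summed over both transcripts, the share was 33.8% and 29.0% by the first quantifier and 37.4% and 32.7% by the second, and the counts were 274.5 and 261.3. The sum thus differed less between libraries than either transcript did. Both end within a few bases of each other (51457653 and 51457655), whereas the last exon of Ppargc1a-203 runs 3403 bases further. The part that the assignment of shared reads had in this exchange was not tested.

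The upstream start of Ppargc1a gave different answers in TPM and in counts. By TPM, its transcripts held 17.6% and 21.9% of the gene by the first quantifier and 14.7% and 25.9% by the second. In counts they held 20 of 1219 in library 1, or 1.64% (exact interval 1.00 to 2.52%), and 26 of 1246 in library 2, or 2.09% (1.37 to 3.04%). The second quantifier assigned them 13 and 26 counts. The intervals cover counting error and not the assignment of reads among transcripts. Reads beyond the 4 annotated exons of Ppargc1a-202 could not be assigned to it, so the count share does not bound the use of this start. The transcript that carries nearly all of it, Ppargc1a-202, is annotated at 488 bases with an open 3′ end, against 6464 bases for Ppargc1a-203, so few reads convert to a large TPM. The RefSeq promoter window (GRCm38.p6) at this start holds 250 bases before it and is shown because the share rests on this start alone; it has 48% G and C, against a median of 52.4% over all windows, and none of its letters are in capitals because none of the 7 motifs searched was found.
Ppargc1a upstream promoter, chr5:51567726-51567975, minus strand: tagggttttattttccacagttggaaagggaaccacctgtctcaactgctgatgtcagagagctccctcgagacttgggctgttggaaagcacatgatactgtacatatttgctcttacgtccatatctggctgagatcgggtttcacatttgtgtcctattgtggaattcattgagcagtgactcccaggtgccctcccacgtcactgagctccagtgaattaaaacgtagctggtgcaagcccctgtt

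Among the PPARs, Ppard was the leading gene in both libraries, ahead of Ppara and Pparg. Ppard encodes the PPAR form most tied to fatty acid use in muscle, and it was at 10.57 and 15.17 TPM. Its counts were nearly equal, 899 and 895, with a log2 ratio of 0.03 (-0.10 to 0.17), while its TPM ratio was 0.52. Over the same libraries the effective length that the authors' table gives Ppard fell from 2799 to 2244 bases. The leading Ppard-201 held 82.8% and 57.9% of the gene's TPM, and the intron-retaining Ppard-209, of 739 bases, held 15.2% and 24.7%. The TPM rise of Ppard therefore had no counterpart in its counts. The gene (ENSMUSG00000002250.16) lies on the plus strand at chr17:28232700-28301474.

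Ppara, the receptor that drives fatty acid oxidation in fasting and the target of fibrate drugs, was at 5.39 and 5.53 TPM from 347 and 361 counts. Its log2 ratio was 0.10 (-0.12 to 0.31). By the second quantifier its TPM went from 5.22 to 4.30, while the counts of that quantifier gave a log2 ratio of 0.16. The direction for Ppara thus turned in the TPM of the second quantifier alone. In that table a 360-base transcript with an open 3′ end, Ppara-204, held 37.6% of Ppara TPM in library 1 from 10.5 counts. Ppara (ENSMUSG00000022383.13) lies on the plus strand at chr15:85734983-85802819.

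Pparg, the master regulator of adipocyte formation, was the lowest of the 10 genes at 1.08 and 2.03 TPM. It rested on 51 and 63 counts, and its log2 ratio of 0.34 had an interval of -0.21 to 0.91. Adipocyte markers were present in both libraries: 7 of 8 were detected, their summed TPM was 196 and 207, and Cfd (adipsin) and Fabp4 (the adipocyte fatty acid carrier) were the highest at 96.09 and 89.02 and at 61.66 and 79.20 TPM. Of the 5 brown adipocyte markers, 0 were detected, with Ucp1 at 1 and 0 counts and Elovl3 at 0 in both. Macrophage markers, from another cell type known to express Pparg, summed to 26.3 and 23.8 TPM. Which cells carried Pparg was not tested, and in bulk tissue fewer cells of a type and less RNA per cell cannot be told apart. The transcript tables did not settle the Pparg start: the downstream start of Pparg-201, known as the adipocyte-enriched form, held 0% and 5.91% by the first quantifier and 51.8% and 12.1% by the second. Pparg (ENSMUSG00000000440.12) lies on the plus strand at chr6:115360951-115490399.

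As shares of the summed PPAR TPM, Ppard held 62.0% and 66.7% (64.4 ± 3.33%), Ppara 31.6% and 24.3% (28.0 ± 5.16%) and Pparg 6.34% and 8.93% (7.63 ± 1.83%). These ranges did not overlap between the genes. Ppard was 1.96 and 2.74 times Ppara by the first quantifier and 1.92 and 3.42 times by the second.

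Among the ERRs, Esrra was far above its paralogs. Esrra, a direct partner of PGC-1 proteins at respiratory chain genes, was at 30.89 and 37.76 TPM and above 84.9% of detected protein-coding genes. Its 1966 and 2045 counts gave a log2 ratio of 0.10 (0.01 to 0.19). Esrra (ENSMUSG00000024955.14) lies on the minus strand at chr19:6910977-6921813 and shares 73 exon bases with Trmt112 on the opposite strand, which was at 17.3 and 21.31 TPM. The library kit was directional per the labels, but the strand setting of the counting is not stated there.

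Esrrg, known for high expression in oxidative muscle and heart, was at 5.66 and 8.55 TPM. Its counts were 815 and 1009, and its log2 ratio of 0.35 (0.21 to 0.48) was the largest after that of Ppargc1b. Both Esrrg and the slow myosin Myh7 (log2 ratio 0.33) were higher in library 2; any tie between these values was not tested. Esrrb, best known for its role in pluripotent cells and the placenta, was at 2.51 and 3.01 TPM. Its 297 and 269 counts gave a log2 ratio of -0.10 (-0.35 to 0.14), while its TPM ratio was 0.26. The direction for Esrrb thus turned with the unit. Esrrg (ENSMUSG00000026610.13) lies at chr1:187608791-188214885 and Esrrb (ENSMUSG00000021255.17) at chr12:86361117-86521628, both on the plus strand.

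Of the summed ERR TPM, Esrra held 79.1% and 76.6% (77.8 ± 1.78%), Esrrg 14.5% and 17.3% (15.9 ± 2.01%) and Esrrb 6.43% and 6.10% (6.26 ± 0.228%). In expected counts, where longer transcripts weigh more, Esrra held 63.9% and 61.5% and Esrrg 26.5% and 30.4%. Esrra kept its lead on both scales. By TPM it was 5.46 and 4.42 times Esrrg, and Esrrg was 2.25 and 2.84 times Esrrb.

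Esrrg has starts far apart in its locus. Transcripts from the downstream start at 187997827 (Esrrg-201 and Esrrg-202) held 73.1% and 67.6% of Esrrg TPM by the first quantifier and 61.9% and 49.4% by the second. Those from the start region at 187608791 held 25.4% and 31.3%, or 34.4% and 43.5%. Both quantifiers thus put more than 1 start in use, with a lower downstream share of TPM in library 2. By the first quantifier, part of this rested on Esrrg-204, of 450 bases with an open 3′ end. It held 6.36% and 11.7% of Esrrg TPM from 3.86 and 9.22 counts. In counts of that quantifier the downstream start held 654.5 and 790.3, and the start region at 187608791 held 159.5 and 217.7. The RefSeq window (GRCm38.p6) before the downstream start is shown because most Esrrg TPM of the first quantifier began there; it held none of the 7 motifs, so none of its letters are in capitals.
Esrrg downstream promoter, chr1:187997577-187997826, plus strand: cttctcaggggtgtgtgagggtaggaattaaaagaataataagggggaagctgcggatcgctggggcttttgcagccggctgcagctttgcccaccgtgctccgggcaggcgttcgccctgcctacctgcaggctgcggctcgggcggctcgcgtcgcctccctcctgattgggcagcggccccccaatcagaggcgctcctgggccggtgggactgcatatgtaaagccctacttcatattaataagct

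Nrf1, a transcription factor for nuclear genes of the respiratory chain, was at 4.03 and 5.28 TPM from 295 and 304 counts. Its log2 ratio was 0.08 (-0.15 to 0.32). Tfam, which packages mitochondrial DNA and starts its transcription, was at 20.83 and 22.41 TPM, the second highest of the 10 genes. Its 995 and 943 counts gave a log2 ratio of -0.04 (-0.17 to 0.09). Tfam was 5.17 and 4.24 times the level of Nrf1. Nrf1 (ENSMUSG00000058440.14) lies on the plus strand at chr6:30047988-30153458 and Tfam (ENSMUSG00000003923.14) on the minus strand at chr10:71225464-71238280. The leading Tfam transcript differed between tables: Tfam-202 held 60.2% and 39.6% by the first quantifier, and Tfam-203 held 0% and 1.07% by the first but 37.9% and 22.2% by the second. Over all 10 genes and their 71 transcripts, the leading transcript was the same in all 4 tables for 7 genes; the exceptions were Pparg, Esrrg and Tfam.

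Between the libraries, none of the regulators passed a fold of 2. Of the 7 genes with mean TPM of at least 5 and at least 100 counts, 0 had an absolute log2 ratio of at least 1, and of all genes that met these limits 0.494% did. With 2 libraries of 1 group there is no replicate check of a ratio, so no p-value is given. In TMM-scaled counts 8 of 10 were higher in library 2, against 51.9% of all genes, and Esrrb and Tfam were lower. In deposited TPM all 10 were higher in library 2, against 77.4% of all genes. Set against the median of all genes under the same scaling, 8 of 10 were above it with TMM, DESeq2 and spike-in scaling, all but Esrrb and Tfam. With deposited TPM 8 of 10 were also above it, but there the exceptions were Ppara and Tfam. With the second quantifier's TPM 9 of 10 were above it, all but Ppara. The median log2 ratio of the 10 genes was 0.09 from TMM and 0.34 from TPM, where the medians of all genes were 0.01 and 0.17. The median absolute ratio of the 10 genes, 0.10, was near that of all genes, 0.12. The interval excluded 0 for 3 genes, Ppargc1b, Esrrg and Esrra, with counting error alone considered. The share of all genes with such an interval was not computed, so 3 of 10 cannot be set against it. For Esrra the ratio of 0.10 was smaller in size than the median of all genes, 0.12, and was 0.03 with spike-in totals.

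**Figure D2:**
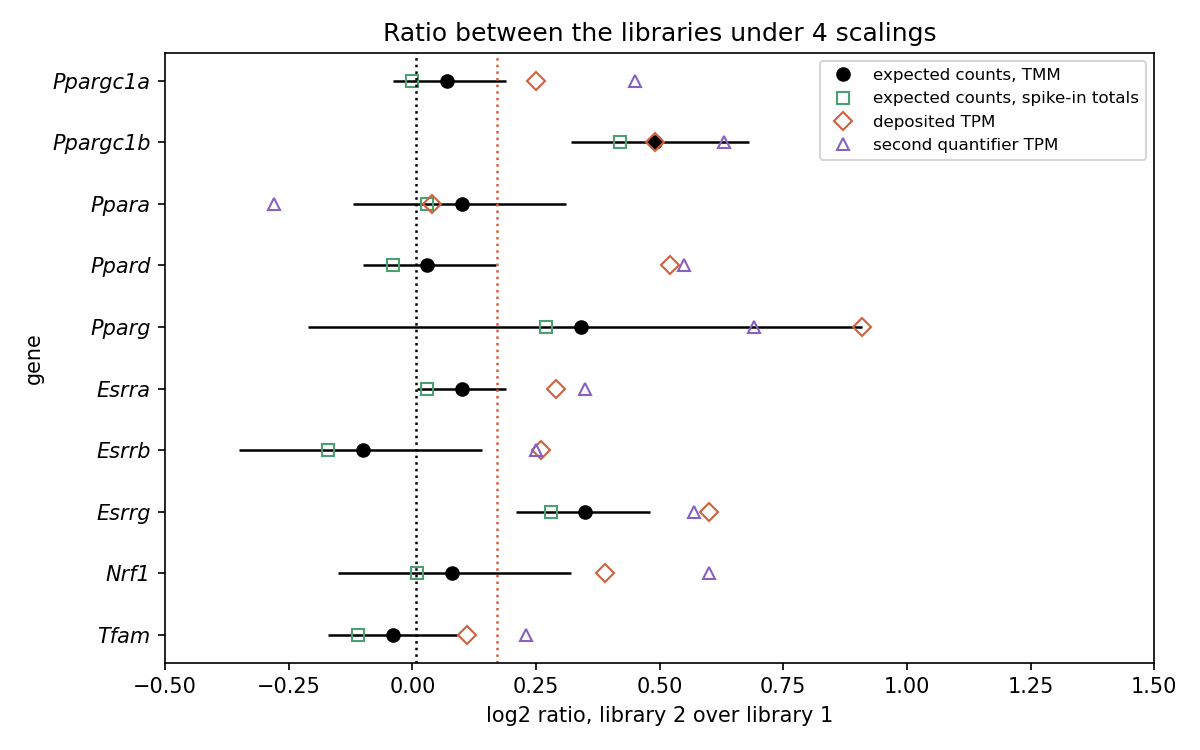
Log2 ratio of library 2 over library 1 for each gene under 4 scalings; black lines are 95% counting intervals of the TMM ratio, and dotted lines are the medians of all genes for TMM (black) and deposited TPM (orange). Ppargc1b lies at 0.49 by both TMM and TPM, whereas Ppard lies at 0.03 by TMM and 0.52 by TPM.

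Set among 49 nuclear receptor genes, the PPARs and ERRs took places from the upper part to the end of the detected range. Of the 49, 31 were detected, against 44.5% of protein-coding genes. Among the 5 highest by mean TPM were Nr4a1 (an immediate-early orphan receptor), Nr1d1 (the clock repressor REV-ERBalpha), Rxra (the common PPAR partner) and Rora. Esrra ranked 8, between Nr1d2 (35.5 ± 5.81 TPM) and Thra (27.6 ± 3.39 TPM), a thyroid hormone receptor gene. Ppard ranked 15, between Thrb and Nr1h3. Esrrg ranked 20, after Nr2f2. Ppara ranked 24, between Nr3c2 and Rara, Esrrb ranked 28, between Rarg and Nr2c1, and Pparg ranked 31, after Nr6a1. Pparg was the lowest detected receptor, and the next, Nr4a2, was at 0.27 and 0.40 TPM. The library values of many neighbours overlapped, such as Ppard at 10.57 and 15.17 TPM and Thrb at 11.67 and 14.28 TPM.

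**Figure D3:**
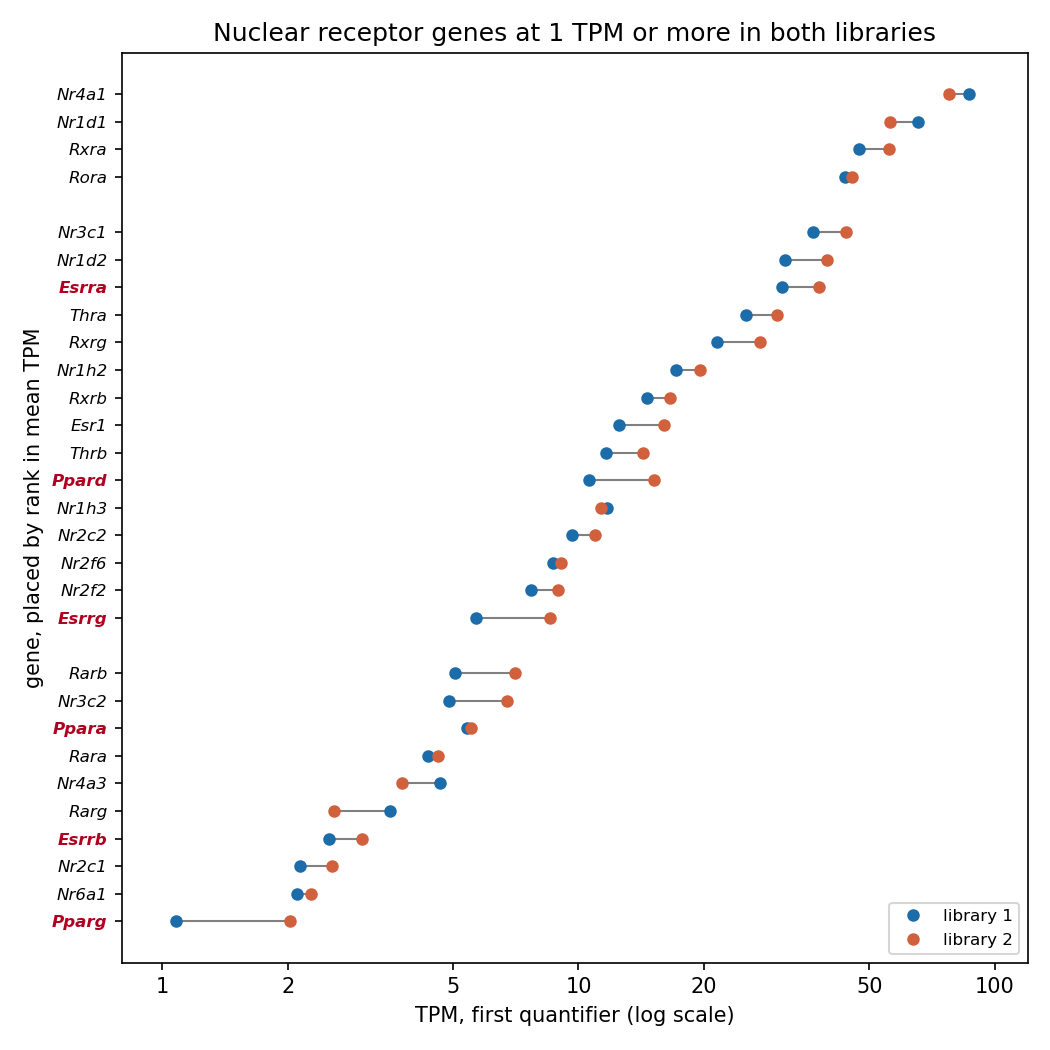
TPM (log axis) of nuclear receptor genes detected in both libraries, placed by their rank in mean TPM (2 of the 31 are not shown), with library 1 in blue and library 2 in orange; PPAR and ERR genes are named in red. Esrra lies in place 8 and Pparg in place 31, and the lines that join the libraries overlap for many neighbours.

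Partners and coregulators of these receptors were taken from a list chosen with earlier results of these data known. Of 18 partner and coregulator genes, 18 were detected, against 44.5% of protein-coding genes. Their median log2 ratio was 0.04, and 0 of 17 tested passed a fold of 2, against 0.494% of all genes that met the limits. The highest were Lpin1 (a phosphatidate phosphatase that also coactivates PGC-1alpha and PPARalpha) at 126.39 and 120.91 TPM, Smarcd3 (a muscle subunit of the BAF remodelling complex) at 80.19 and 96.91 TPM, and Perm1 (a muscle regulator induced by PGC-1 and ERR) at 55.76 and 66.21 TPM. Among those with mean TPM of at least 5, the largest ratios were those of Ncoa2, a steroid receptor coactivator, at 0.29 and of Lpin1 at -0.21. Of the RXRs, Rxra was at 47.32 and 55.69 TPM, Rxrg at 21.56 and 27.38 and Rxrb at 14.57 and 16.62, each above Ppard in both libraries.

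Of 22 genes known to act on Ppargc1a, 21 were detected, against 44.5% of protein-coding genes. A fold of 2 was passed by 0 of 16 tested, against 0.494% of all genes that met the limits. Mef2c, Camk2a and Ppp3ca, a transcription factor, a calcium-dependent kinase and the calcineurin catalytic subunit, were the highest at 158.73 and 209.07, 131.50 and 173.08, and 71.09 and 87.09 TPM. Crtc2, a CREB coactivator, had a ratio of -0.36, and Camk2a one of 0.22. Camk4 was the gene not detected, with 2 and 3 counts.

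Among target genes of the PPARs and of the ERRs, no gene tested passed a fold of 2 between the libraries. Of all genes that met the same limits 0.494% did, so a count of 0 in lists of this size does not set the targets apart. Of 22 PPAR targets, 19 were detected in both libraries, against 44.5% of protein-coding genes. The 20 with mean TPM of at least 1 had a median log2 ratio of -0.11. In TMM-scaled counts 3 of these 20 were higher in library 2, against 51.9% of all genes, and 0 of 18 tested passed a fold of 2. On the same scale macrophage and endothelial markers also had lower values in library 2, with medians of -0.40 (0 of 4 higher) and -0.10 (1 of 6 higher), and adipocyte markers had a median of 0.00; their part in the PPAR target values was not tested. Set against the median of all genes, 17 of 20 PPAR targets were lower with TMM, DESeq2 and spike-in scaling, 16 with deposited TPM and 15 with the second quantifier. Pdk4, which restrains pyruvate oxidation, was at 230.09 and 138.44 TPM, a ratio of -0.82, and Plin5, a lipid droplet protein, was at 11.68 and 9.17 TPM, a ratio of -0.52. Fabp3, the muscle fatty acid carrier, and Hadhb, a subunit of the trifunctional protein of beta-oxidation, had ratios of -0.11 and 0.01. The lowest ratio, named after its value was seen, was -1.72 for Acot1, a thioesterase with near-identical paralogs, from 53.6 and 16.43 counts.

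All 15 ERR targets were detected, against 44.5% of protein-coding genes, with a median log2 ratio of 0.04. A fold of 2 was passed by 0 of 15, against 0.494% of all genes that met the limits. In TMM-scaled counts 14 of 15 were higher in library 2, against 51.9% of all genes. With spike-in totals 5 of 15 were higher. The share of all genes was not computed there, and their median was -0.06. Under both scalings 11 of 15 lay above the median of all genes. The list was led by Atp5b (a subunit of ATP synthase) at 1243.66 and 1378.26 TPM, Mb (myoglobin) at 1139.46 and 1288.98 TPM and Cox6a2 (a muscle subunit of cytochrome oxidase) at 587.15 and 698.6 TPM. Idh3a, of the citric acid cycle, and Ckmt2, the sarcomeric mitochondrial creatine kinase, had the largest ratios among those named by rule, 0.21 and 0.16.

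Of 17 genes for expression of mitochondrial DNA, 16 were detected, against 44.5% of protein-coding genes. The median log2 ratio of these 16 was -0.04, and 4 of them lay above the median of all genes, 0.01. Slirp and Lrpprc, which stabilise mitochondrial mRNA, were at 58.41 and 60.21 and at 22.39 and 24.33 TPM, and Tfb2m, which starts mitochondrial transcription with Tfam, was at 16.89 and 19.03 TPM. Tfam therefore stood near Lrpprc and Tfb2m in level. The replication genes Twnk (the helicase) and Polg (the polymerase) had ratios of -0.41 and -0.26. Of 11 PGC-1 muscle targets, which include Esrra itself, 10 were detected, against 44.5% of protein-coding genes. The median ratio of these 10 was 0.06, and 6 of them lay above the median of all genes. Slc2a4 (the insulin-responsive glucose transporter), Sod2 and Got2 led this list at 182.73 and 199.67, 144.15 and 166.52, and 138.48 and 160.23 TPM. Fndc5 and Sirt3 had ratios of 0.21 and 0.19. A fold of 2 was passed by 0 of the 11 mitochondrial DNA expression genes tested and 0 of the 9 PGC-1 muscle targets tested, against 0.494% of all genes. Vegfa stands among both the ERR targets and the PGC-1 muscle targets.

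**Figure D4:**
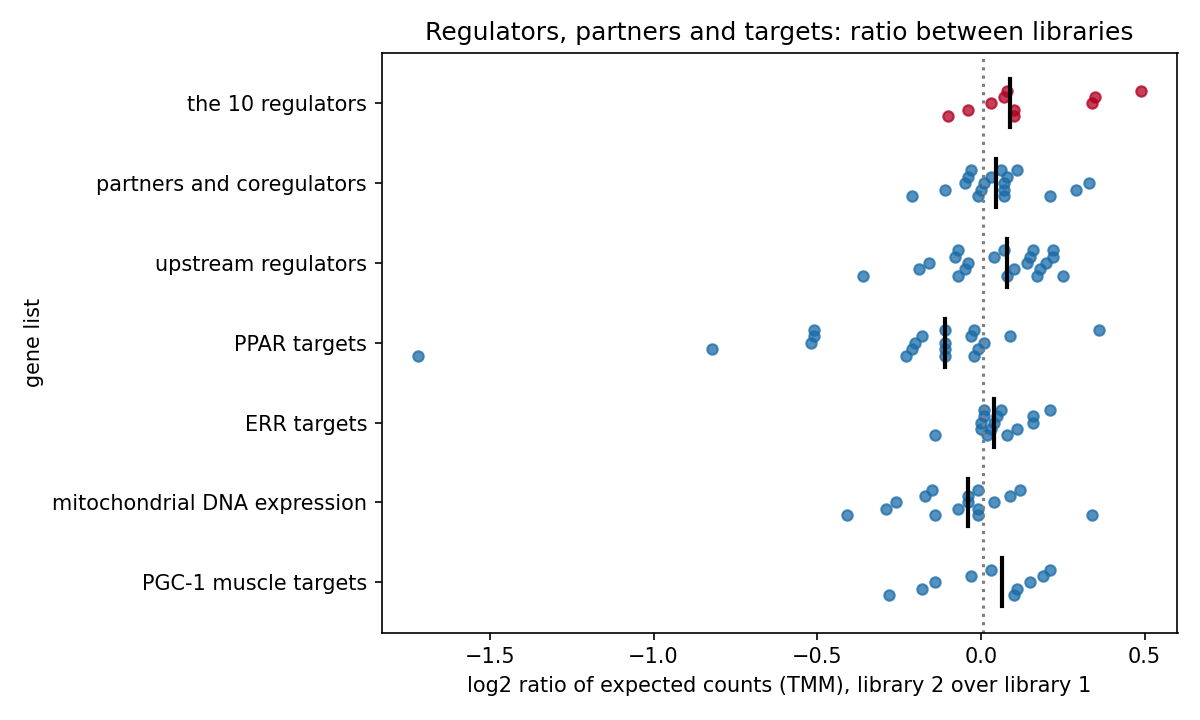
Log2 ratio of TMM-scaled counts, library 2 over library 1, for the 10 regulators (red) and for genes of 6 lists (blue) with mean TPM of at least 1; black bars are list medians and the dotted line is the median of all genes. List medians lie between -0.11 (PPAR targets) and 0.09 (the 10 regulators), and Acot1 lies farthest out at -1.72.

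RefSeq promoter windows (GRCm38.p6), from 250 bases before to 50 bases after the start, were searched for 9 of the 10 genes, 16 windows in all. Member windows on the chromosome of Ppargc1b were left out, so Ppargc1b was not searched. The window of Ppargc1a is that of its upstream start, so the main Ppargc1a start was not searched. Each was searched on both strands for 7 motifs. The ERR element TCAAGGTCA, held by 0.423% of 32851 windows, was in 0 of the 16, as were a pair of AGGTCA half-sites separated by 1 base (0.0396% of windows) and the cyclic AMP element TGACGTCA (1.79%). The single half-site AGGTCA, which is also part of the ERR element and of the half-site pair, was in 2 windows, both of Pparg, and in 16.3% of all windows. The NRF1 core GCGCATGCG was in 1 window, that of Ppara at positions -31 to -23 from the start, and in 1.75% of all windows. The ETS core CCGGAAG was in the Tfam window, at -47 to -41, and in 8.86% of all windows. A MEF2 site was in 1 window of Esrrg, at -22 to -13, and in 1 of Nrf1, at -95 to -86, and in 3.19% of all windows. These matches describe letters in the windows and are not measured binding.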

How the data were processed

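Total RNA-seq was measured in 2 libraries of 1 group. The deposited read-me names mm10 and GENCODE M21 as reference; no software is named there or in the labels. The authors deposited gene and transcript tables of expected counts and TPM (the first quantifier, per the file headers in RSEM's layout), a percent of each gene's TPM per transcript, and transcript tables of estimated counts and TPM (the second quantifier, in kallisto's layout), summed here per gene. TPM runs over all entries, spike-ins included. The 96 spike-ins and 26248 entries with numeric identifiers (1 and 0 counts) were left out of gene totals. All genes and lists were matched by symbol.

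Ratios used expected counts rounded to whole numbers, with TMM factors from edgeR 4.0.16 and, as alternatives, DESeq2 1.42.0 size factors, spike-in totals, TPM and the second quantifier (R 4.3.3, Python 3.11.15, scipy 1.17.1). The scaling step was tested on simulated counts. Detection required TPM of at least 1. A fold of 2 was called at mean TPM of at least 5 and 100 summed counts. No test between samples was possible with 1 group. Motifs and starts (grouped within 500 bases) are descriptions. Reads from CAST alleles were assigned to the mm10 reference, and the effect on single genes was not tested.

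The 10 genes and the lists were chosen with earlier results of these data known. Named were all 10 genes and, of each other list, the 3 highest by mean TPM and the 2 with the largest absolute ratio at mean TPM of at least 5 and 100 counts; of nuclear receptors, the 5 highest and the rank neighbours of each PPAR and ERR gene, of which 2 genes are not reported here. Of the marker lists, endothelial markers (6 of 6 detected) had a median log2 ratio of -0.10 and macrophage markers (4 of 6 detected) one of -0.40.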

Additional observations from a re-analysis of the deposited data

How the results depend on the processing

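All 10 genes stayed detected at TPM of at least 0.5, with the second quantifier and in either library alone; at TPM of at least 2, 9 did, without Pparg. Of the family and transcript shares, those moved by more than the SD between libraries were the following. In expected counts in place of TPM, Ppard held 68.6% and Pparg 4.35% of the PPAR genes, Esrra 62.7%, Esrrg 28.4% and Esrrb 8.87% of the ERR genes, and Ppargc1a 70.3% of the PGC-1 pair. With the second quantifier, Pparg held 9.88%, Esrra 80.6%, Esrrb 5.34% and Ppargc1a-203 44.7% of its gene. A share absent from this list is not thereby stable. With 2 libraries, leaving out 1 can never move a share by more than the SD. Ppargc1a-205 held 26.4% and 0% in libraries 1 and 2 (mean 13.2%, SD 18.7%) and so counted as not moved. Each family kept its order. With deposited TPM the median log2 ratio of the 10 genes moved to 0.34. No gene passed a fold of 2 under any scaling tried, and 8 of 40 ratios of single genes under another scaling fell outside their counting interval, all with deposited TPM. These 40 leave out the TPM of the second quantifier. There too the ratios fell outside the interval, for all genes but Ppargc1b (0.63) and Pparg (0.69). No paired analysis was possible because there is 1 group. Pparg (51 and 63 counts) and the Ppargc1a upstream start (20 and 26 counts) rest on few counts, as do the shares of minor transcripts such as Ppara-204 and Pparg-201.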
